A study of Mus musculus with 8 samples.

Results

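The citric acid cycle and fatty acid oxidation were followed through 37 genes chosen by name, 16 for the cycle with the entry of pyruvate and 21 for fatty acid oxidation. A gene was measured where the platform annotation of a row named it and no other gene, and its brightest such row was used. This gave 35 of the 37 genes, 16 of 16 for the cycle and 19 of 21 for fatty acid oxidation, among 15007 genes tested. Acsl1, which activates long-chain fatty acids, and Cpt1b, the muscle form of the outer carnitine palmitoyltransferase, had no row naming them alone and are not analysed here. The lowest log2 level of any of the 35 genes on any array was 8.59, above the limit of 6.35 under which rows were left out, so all 35 passed that filter.

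The series asked how the interleukin-33 receptor ST2 on regulatory T cells bears on the regeneration of muscle. Male C57BL/6 mice carried Foxp3-Cre, which acts in cells that express Foxp3, with either ST2 flox or ST2 WT, so the control animals carried the Cre as well. Their tibialis anterior was frozen with a metal probe for 8 seconds and the whole muscle was taken 8 days later. The age is 10 weeks in the labels and 2 months in the description of the series. There were 4 arrays of each genotype, numbered 1 to 4 in the sample titles. What the numbers stand for is not in the labels, nor whether samples are different animals. The p-values therefore speak only of the scatter among these arrays, part or all of which could be technical. The floxed gene itself is not analysed here, so the deletion was not checked. Foxp3-expressing cells give only a minor share of whole-muscle RNA.

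Mitochondria of muscle fibres feed on pyruvate and on fatty acids. Pyruvate dehydrogenase turns pyruvate into acetyl-CoA, and the citric acid cycle oxidises the acetyl group and passes electrons to the respiratory chain. Long-chain fatty acids are carried to the mitochondrion, activated, moved through its inner membrane as carnitine esters and shortened step by step to acetyl-CoA, with electrons leaving through acyl-CoA dehydrogenases and the electron transfer flavoprotein. Both routes are rich in oxidative fibres, and a freezing injury removes fibres that are then rebuilt.

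Levels below are log2 intensities of 1 gene across arrays, and differences are log2 differences. Levels of different genes are not set against each other, since their probes differ. Median intensity per array lay between 185 and 189, and the arrays correlated at 0.988 to 0.9967 across genes. The 16 mature fibre markers were all tested and their log2 levels lay between 11.5 and 13.9. In a whole muscle, fewer fibres and less transcript per fibre cannot be told apart.

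No gene of either pathway passed the test between the genotypes. Of the 35 genes, 0 passed an adjusted p of 0.05 in limma, where 0.0% of all genes passed, and 0 had an unadjusted p under 0.05, where 3.79% of all genes did. The median difference, ST2 flox minus ST2 WT, was -0.060 for the 16 genes of the cycle, of which 3 were higher in flox where 48.8% of all genes were, and -0.016 for the 19 genes of fatty acid oxidation, of which 6 were higher. The median over all genes was -0.0025. The genotypes overlapped for each of the 35 genes, where they were separate with flox higher in 1.14% of all genes and with flox lower in 0.826%. Over the 35 genes the 95% intervals reached from -0.35 to 0.56, so differences of that size in single genes were not excluded by 4 arrays a group.

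Among the genes with the smallest genotype p, Pdha1, the catalytic alpha subunit of pyruvate dehydrogenase, had a flox minus WT difference of -0.12 (SE 0.10, limma adjusted p = 0.912). Sucla2, the beta subunit of the ATP-linked succinyl-CoA synthetase, had -0.11 (SE 0.085). Idh3g, Idh3b and Idh3a, the subunits of the NAD-dependent isocitrate dehydrogenase, had -0.074, -0.076 and -0.069. In fatty acid oxidation these were Acadm, the medium-chain acyl-CoA dehydrogenase, at -0.089 (SE 0.067), the isomerase Eci1 at -0.10 (SE 0.091), the fatty acid binding protein of muscle Fabp3 at 0.16 (SE 0.18), the reductase Decr1 at -0.059 (SE 0.080) and Etfa at -0.064 (SE 0.10). The difference of Fabp3 was the largest of the 35, and its interval ran from -0.24 to 0.56. The adjusted p of each of these genes lay above 0.91. Without WT 3 both medians turned positive, to 0.0015 and 0.041, with 25 of 35 genes higher in flox where 51.8% of all genes were. The median of fatty acid oxidation was also above 0 without flox 1, at 0.00033, and without WT 4, at 0.0028. Without WT 2 the medians were -0.098 and -0.075, with 2 of 35 genes higher where 44.8% of all genes were.

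**Figure D1:**
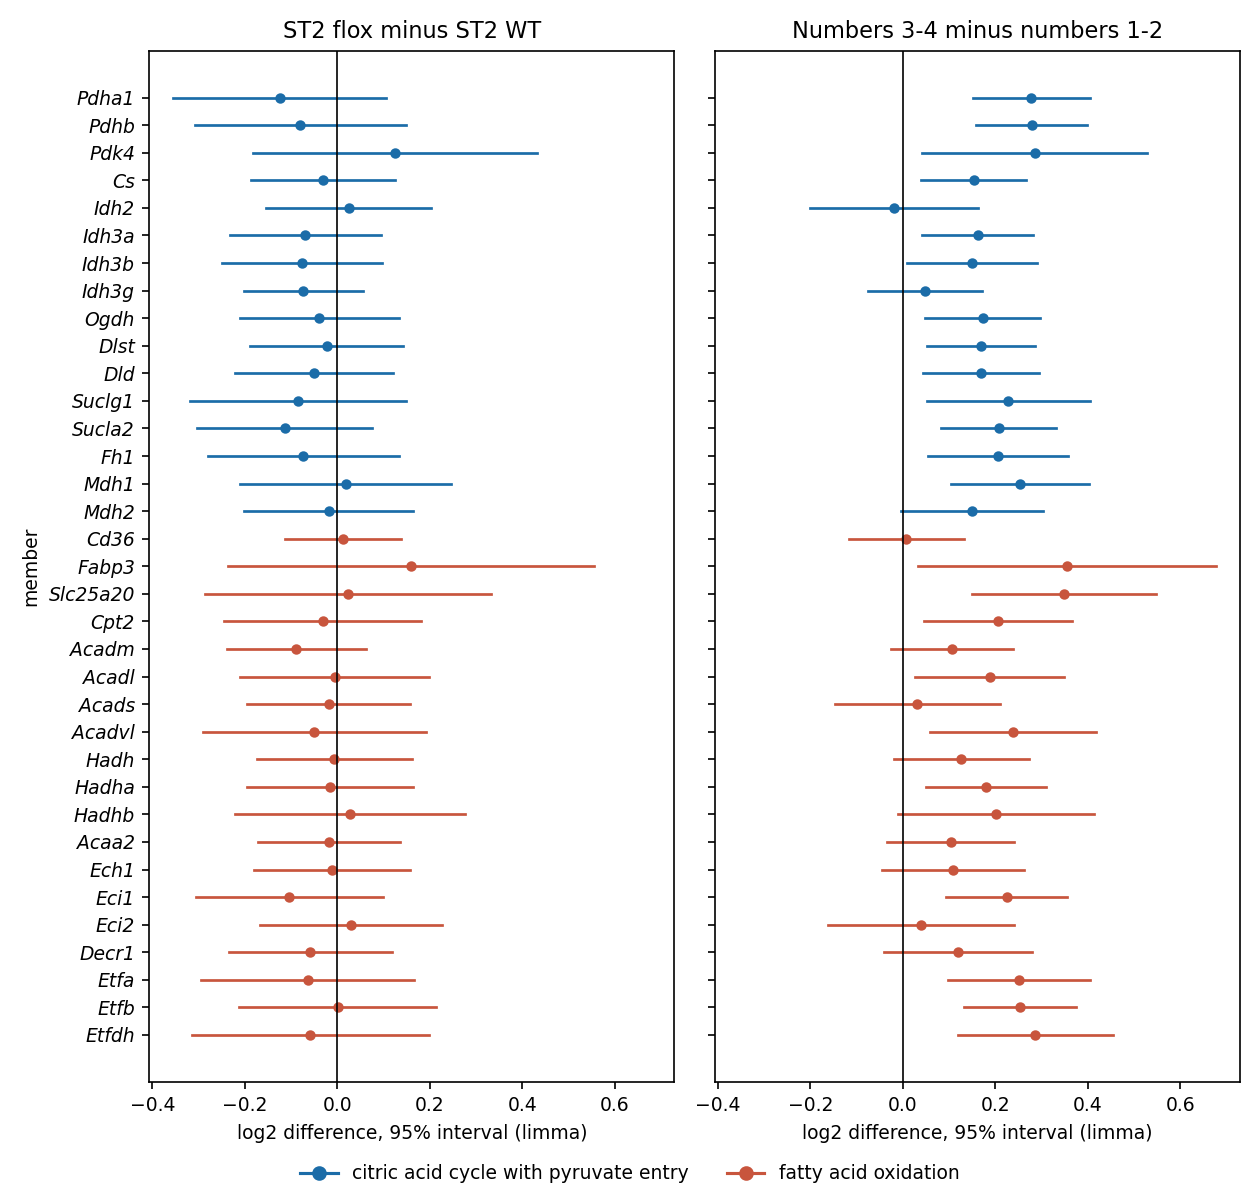
Log2 difference of each gene with its 95% interval from limma, ST2 flox minus ST2 WT on the left and numbers 3 and 4 minus numbers 1 and 2 on the right, for 16 genes of the citric acid cycle with pyruvate entry (blue) and 19 of fatty acid oxidation (red). Every interval on the left crosses 0, while 34 of 35 points on the right lie above 0 and 23 intervals there exclude it.

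The number in the sample title divided the arrays more widely. In a fit with genotype as a term, 34 of 35 genes were higher in numbers 3 and 4 than in numbers 1 and 2, where 56.7% of all genes were. The exception was Idh2 at -0.020 (SE 0.081). The median difference was 0.17 for the cycle and 0.19 for fatty acid oxidation, and 0.019 over all genes. An unadjusted p under 0.05 in the higher direction was reached by 23 of 35 genes, 13 of 16 in the cycle and 10 of 19 in fatty acid oxidation, where 9.65% of all genes reached it. After adjustment over all genes 0 of 35 passed 0.05, where 0.373% of all genes passed, and the lowest value was 0.0616 for Pdhb. The 4 arrays numbered 3 and 4 lay wholly above the 4 numbered 1 and 2 for 20 of 35 genes, 57.1%, against 6.21% of all genes.

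The adjusted call depended on the processing. With quantile normalization Pdha1, Pdhb, Slc25a20 and Etfdh passed in limma, with adjusted p of 0.0384, 0.0382, 0.0372 and 0.0494, where 2.27% of all genes passed. Pdha1 and Pdhb also passed with cyclic loess, with a filter at the 50th percentile and with a trended robust prior, where 2.15%, 2.57% and 1.63% of all genes passed. Slc25a20 passed with cyclic loess too, and Etfb with the other 2. The split by title number was noticed in earlier results of these data, so the differences describe these 8 arrays and are no independent support for the split.

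**Figure D2:**
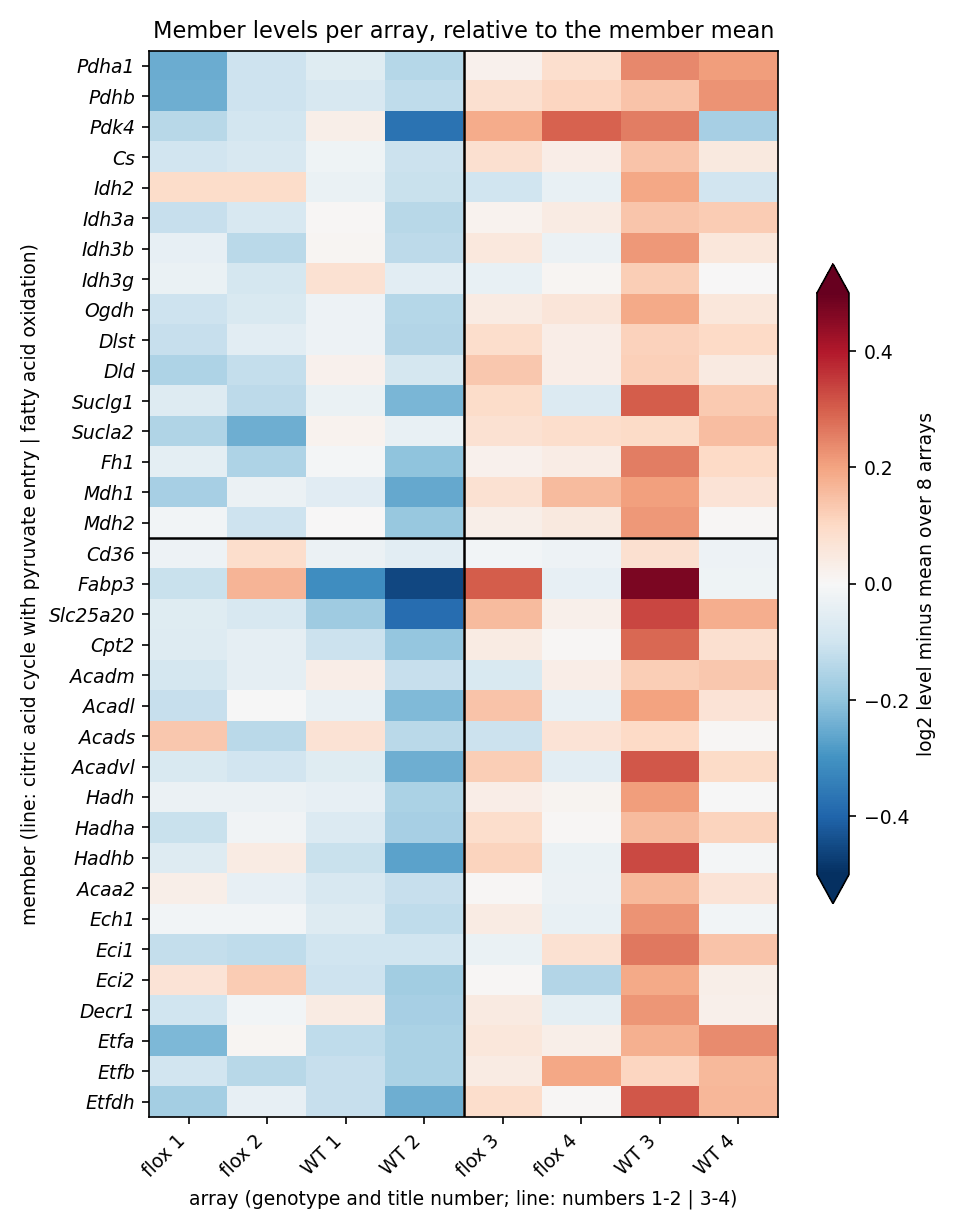
Log2 level of each of the 35 genes on each of the 8 arrays, minus the mean of that gene over the arrays, with numbers 1 and 2 to the left of the vertical line and the citric acid cycle with pyruvate entry above the horizontal line. Most cells are blue at the left and red at the right, with the deepest blue in WT 2, the lowest array for 27 of 35 genes, and the deepest red in WT 3, the highest for 26 of 35.

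Values per array are given in the order flox, flox, WT, WT within each pair of numbers. The entry of pyruvate had 3 genes, and the differences by number were alike. Pdha1 read 11.34, 11.48, 11.53 and 11.44 in numbers 1 and 2 and 11.61, 11.67, 11.83 and 11.80 in numbers 3 and 4, a difference of 0.28 (SE 0.057, limma adjusted p = 0.0637) or 1.21-fold. Pdhb, the beta subunit of the same enzyme, read 10.04, 10.18, 10.21 and 10.16 in numbers 1 and 2 and 10.37, 10.39, 10.43 and 10.51 in numbers 3 and 4, a difference of 0.28 (SE 0.054, limma adjusted p = 0.0616). For both subunits the highest array of numbers 1 and 2 lay below the lowest of numbers 3 and 4. Pdk4, the kinase that switches pyruvate dehydrogenase off and is induced by fasting, read 12.01, 12.06, 12.18 and 11.79 in numbers 1 and 2 and 12.34, 12.45, 12.41 and 11.99 in numbers 3 and 4. Its difference of 0.29 (SE 0.11, limma adjusted p = 0.207) was as large, but WT 1 lay above WT 4 and the groups overlapped. Pdk4 acts against the flow of pyruvate that Pdha1 and Pdhb carry, and without it the median of the other 15 genes of that pathway was 0.17.

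In the first steps of the cycle, citrate synthase Cs read 12.25, 12.27, 12.32 and 12.24 in numbers 1 and 2 and 12.43, 12.38, 12.49 and 12.40 in numbers 3 and 4, and its groups by number did not overlap. The 3 subunits of the NAD-dependent isocitrate dehydrogenase were less alike. Idh3a, the catalytic subunit, read 12.39, 12.42, 12.51 and 12.37 in numbers 1 and 2 and 12.52, 12.54, 12.64 and 12.63 in numbers 3 and 4, without overlap and with a difference of 0.16 (SE 0.053). Idh3b read 12.29, 12.20, 12.34 and 12.20 in numbers 1 and 2 and 12.38, 12.30, 12.55 and 12.39 in numbers 3 and 4, with WT 1 above flox 4, and differed by 0.15 (SE 0.063). Idh3g read 12.08, 12.03, 12.19 and 12.06 in numbers 1 and 2 and 12.08, 12.13, 12.24 and 12.12 in numbers 3 and 4 and differed by 0.048 (SE 0.055), with an interval from -0.076 to 0.17. Idh2, the NADP-dependent enzyme of the mitochondrion, ranged over 0.30 between its lowest array, WT 2, and its highest, WT 3, and its interval ran from -0.20 to 0.16.

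The 3 components of 2-oxoglutarate dehydrogenase, which makes succinyl-CoA, shared 1 size of difference. Ogdh, the oxidising subunit, read 11.64, 11.66, 11.72 and 11.60 in numbers 1 and 2 and 11.78, 11.80, 11.93 and 11.80 in numbers 3 and 4. Dlst, the transferase, read 10.76, 10.82, 10.85 and 10.73 in numbers 1 and 2 and 10.96, 10.91, 10.99 and 10.97 in numbers 3 and 4. Dld, the flavoprotein that pyruvate dehydrogenase uses as well, read 10.46, 10.49, 10.63 and 10.53 in numbers 1 and 2 and 10.75, 10.65, 10.73 and 10.66 in numbers 3 and 4. The differences were 0.17 (SE 0.055), 0.17 (SE 0.052) and 0.17 (SE 0.056), and for none of the 3 did the groups by number overlap.

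Succinyl-CoA synthetase, which makes the nucleotide triphosphate of the cycle, had differences of 0.21 (SE 0.055) for Sucla2 and 0.23 (SE 0.079) for the shared alpha subunit Suclg1. Sucla2 read 11.53, 11.44, 11.70 and 11.65 in numbers 1 and 2 and 11.76, 11.77, 11.78 and 11.84 in numbers 3 and 4, without overlap. Suclg1 read 10.34, 10.28, 10.37 and 10.18 in numbers 1 and 2 and 10.50, 10.34, 10.71 and 10.54 in numbers 3 and 4, with WT 1 above flox 4. Fumarase Fh1 read 11.02, 10.91, 11.06 and 10.87 in numbers 1 and 2 and 11.09, 11.10, 11.32 and 11.17 in numbers 3 and 4 and the mitochondrial malate dehydrogenase Mdh2 12.67, 12.58, 12.69 and 12.50 in numbers 1 and 2 and 12.71, 12.73, 12.90 and 12.69 in numbers 3 and 4. Neither overlapped by number, although the smallest gap of Mdh2 was narrow, between WT 1 and WT 4. Mdh1, the cytosolic enzyme of the malate shuttle, read 11.71, 11.85, 11.82 and 11.62 in numbers 1 and 2 and 11.95, 12.04, 12.08 and 11.95 in numbers 3 and 4, a difference of 0.25 (SE 0.067, limma adjusted p = 0.107).

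**Figure D3:**
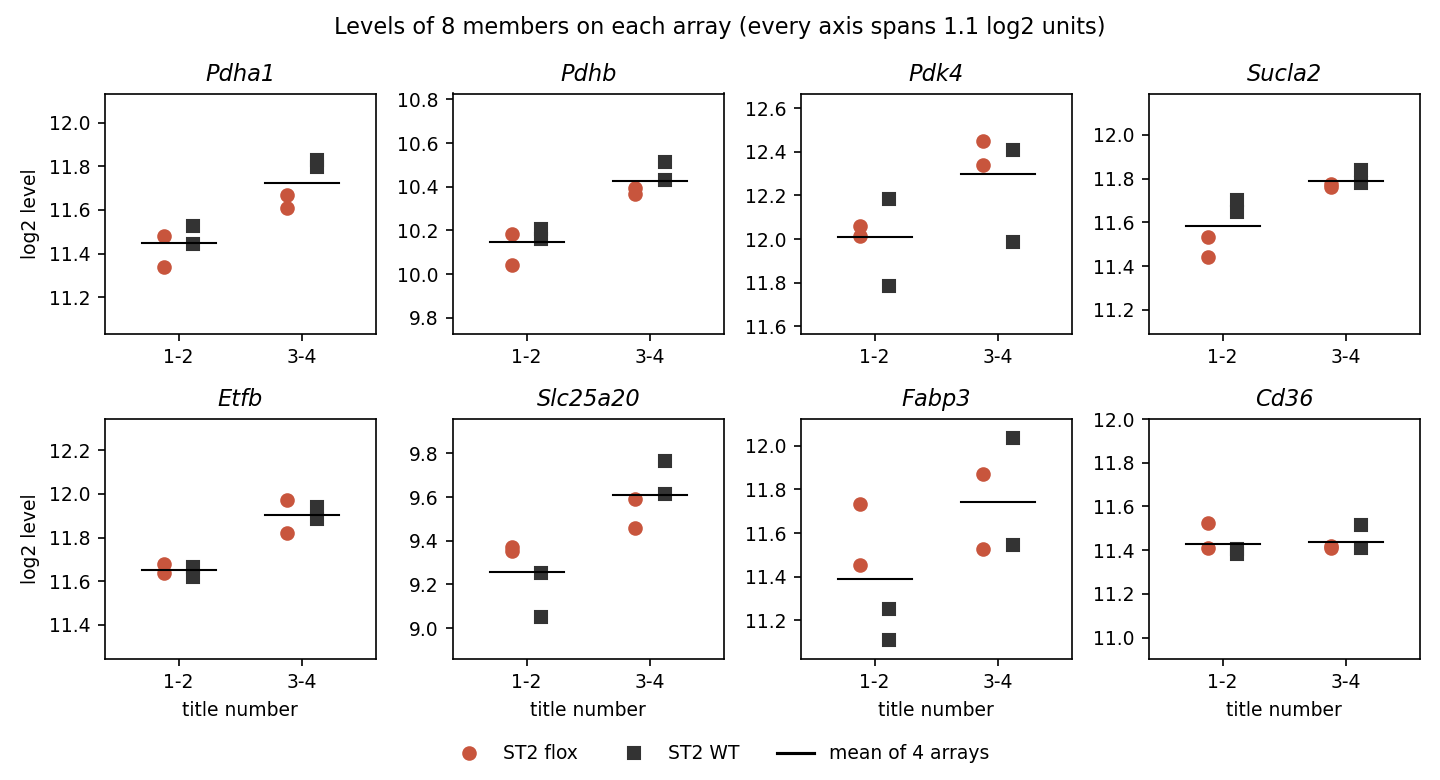
Log2 level of 8 genes on each array, for numbers 1 and 2 on the left of each panel and numbers 3 and 4 on the right, with ST2 flox as circles, ST2 WT as squares and the mean of 4 arrays as a bar. The groups by number are separate for Pdha1, Pdhb, Sucla2, Etfb and Slc25a20, overlap for Pdk4 and Fabp3, and have nearly the same mean for Cd36.

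At the head of fatty acid oxidation the pair of genes measured for uptake differed from each other. Fabp3, which carries fatty acids through the cytosol of the fibre, read 11.45, 11.73, 11.25 and 11.11 in numbers 1 and 2 and 11.87, 11.53, 12.04 and 11.54 in numbers 3 and 4. It had the largest spread over the 8 arrays of the 35 genes, with an SD of 0.31, and its groups by number overlapped although the difference was 0.36 (SE 0.14, limma adjusted p = 0.232). Cd36, the fatty acid carrier of the plasma membrane, which endothelial cells, fat cells and macrophages also express, had the smallest spread, with an SD of 0.053. Its difference by number was 0.0076 (SE 0.056), with an interval from -0.12 to 0.13. Fabp3 and Hadhb each had another row with the same accessions, and the difference by number there was 0.37 and 0.22, close to that of the rows used.

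The inner part of the carnitine shuttle was measured by 2 genes. Slc25a20, the carrier that exchanges acylcarnitine for carnitine across the inner membrane, read 9.37, 9.35, 9.25 and 9.05 in numbers 1 and 2 and 9.59, 9.46, 9.77 and 9.61 in numbers 3 and 4, a difference of 0.35 (SE 0.089, limma adjusted p = 0.0971) or 1.27-fold. Cpt2, which returns the acyl group to CoA inside, read 9.82, 9.83, 9.77 and 9.69 in numbers 1 and 2 and 9.92, 9.89, 10.17 and 9.96 in numbers 3 and 4, a difference of 0.21 (SE 0.072, limma adjusted p = 0.178). WT 2 was the lowest and WT 3 the highest array for both, and numbers 1 and 2 lay wholly below numbers 3 and 4.

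The 4 acyl-CoA dehydrogenases, which take the first electrons, were graded by number from 0.032 for the short-chain Acads and 0.11 for the medium-chain Acadm to 0.19 for the long-chain Acadl and 0.24 for the very long-chain Acadvl. Their standard errors of 0.059 to 0.080 do not set neighbours in this order apart. Acadvl read 9.39, 9.37, 9.40 and 9.22 in numbers 1 and 2 and 9.59, 9.41, 9.78 and 9.56 in numbers 3 and 4. Its groups did not overlap, although WT 1 lay just below flox 4. Acadm read 11.66, 11.71, 11.79 and 11.64 in numbers 1 and 2 and 11.67, 11.78, 11.87 and 11.88 in numbers 3 and 4, with overlap. Acadl and Acads also overlapped.

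The steps from hydration to thiolysis gave differences of 0.10 to 0.20. Hadha, the subunit of the trifunctional protein that hydrates and oxidises long chains, read 11.35, 11.44, 11.39 and 11.29 in numbers 1 and 2 and 11.54, 11.47, 11.62 and 11.57 in numbers 3 and 4, and Hadh, the medium- and short-chain dehydrogenase, 11.81, 11.81, 11.80 and 11.68 in numbers 1 and 2 and 11.87, 11.85, 12.05 and 11.84 in numbers 3 and 4. Neither overlapped by number. The thiolases Hadhb and Acaa2 overlapped, with differences of 0.20 (SE 0.095) and 0.10 (SE 0.061).

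Among the auxiliary enzymes for unsaturated chains, only Eci1 had an unadjusted p under 0.05. Eci1, the delta isomerase of the mitochondrion, read 9.77, 9.76, 9.79 and 9.79 in numbers 1 and 2 and 9.85, 9.96, 10.15 and 10.03 in numbers 3 and 4, a difference of 0.22 (SE 0.059, limma adjusted p = 0.106) without overlap. Decr1, the dienoyl-CoA reductase, read 9.73, 9.81, 9.87 and 9.66 in numbers 1 and 2 and 9.87, 9.78, 10.04 and 9.85 in numbers 3 and 4, with WT 1 above flox 4, and differed by 0.12 (SE 0.071). Ech1 and Eci2 differed by 0.11 (SE 0.069) and 0.039 (SE 0.090), also with overlap.

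The electron transfer flavoprotein, which collects electrons from the dehydrogenases, had an unadjusted p under 0.05 by number in all 3 of its genes. Etfb, its beta subunit, read 11.68, 11.64, 11.66 and 11.62 in numbers 1 and 2 and 11.82, 11.97, 11.89 and 11.94 in numbers 3 and 4, a difference of 0.25 (SE 0.054, limma adjusted p = 0.0659). Etfa, its alpha subunit, read 10.22, 10.46, 10.32 and 10.29 in numbers 1 and 2 and 10.51, 10.48, 10.63 and 10.69 in numbers 3 and 4, a difference of 0.25 (SE 0.068). Etfdh, the membrane oxidoreductase that passes the electrons to ubiquinone, read 10.01, 10.14, 10.06 and 9.93 in numbers 1 and 2 and 10.27, 10.18, 10.49 and 10.34 in numbers 3 and 4, a difference of 0.29 (SE 0.075). None of the 3 overlapped, although flox 2 of Etfa lay just below flox 4.

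Promoter windows from RefSeq, assembly GRCm38.p6, of 250 bases before and 50 after the start were found for 32 of the 35 genes and searched on both strands. Motifs of regulators of mitochondrial and clock genes were counted. An estrogen-related receptor element TNAAGGTCA, a direct repeat of AGGTCA with 1 base between the copies, the E-box CACGTG and the D-box TTATGNAA were found in 0 of 32 windows, against 0.844%, 0.034%, 9.632% and 2.051% of the windows of 11846 tested genes. Another 3 motifs were added after values were seen. The shorter AAGGTCA, which lies within the first of these elements, was in 1 of 32 windows, against 3.343% of all. The core known for NRF1, GCGCA and GCGC with 1 base between, was in 4 of 32, or 12.5%, against 8.94%, and CCGGAAGT, known for GABP and other ETS factors, in 3 of 32, or 9.375%, against 6.947%. A match describes letters in a window, and no binding was measured.

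The stretches that hold the last 2 motifs upstream of genes with separate groups by number are printed on the strand of the gene with the match in capitals. Each runs from 40 bases before the match to 40 bases after it, or to the base before the start where that comes first. Etfdh lies at chr3:79628846-79628935 on the minus strand, Etfb at chr7:43444021-43444071 on the plus strand and Sucla2 at chr14:73552729-73552785 on the plus strand, each with the NRF1 core. Cpt2 lies at chr4:107923590-107923642 on the minus strand and Slc25a20 at chr9:108662017-108662104 on the plus strand, each with CCGGAAGT. The core begins 11 bases before the start of Etfb, 17 before that of Sucla2 and 128 before that of Etfdh.
Etfdh: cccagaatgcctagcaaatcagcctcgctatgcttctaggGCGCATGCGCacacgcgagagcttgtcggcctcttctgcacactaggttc
Etfb: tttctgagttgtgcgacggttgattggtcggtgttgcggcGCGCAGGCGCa
Sucla2: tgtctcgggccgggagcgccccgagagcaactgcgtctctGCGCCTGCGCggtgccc
Cpt2: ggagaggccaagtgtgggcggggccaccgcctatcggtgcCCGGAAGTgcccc
Slc25a20: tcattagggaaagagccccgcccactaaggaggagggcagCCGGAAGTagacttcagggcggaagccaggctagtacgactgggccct
The core of Sucla2 reads on the opposite strand, and that of Etfdh reads the same on both.

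The difference by number was also computed within each genotype. Within ST2 WT 35 of 35 genes were higher in numbers 3 and 4, where 54.5% of all genes were. The medians were 0.20 for the cycle and 0.26 for fatty acid oxidation. At an unadjusted p under 0.05, 24 were higher, where 8.42% of all genes were higher at such a p. Within ST2 flox 30 of 35 were higher, where 50.9% of all genes were, with medians of 0.14 and 0.078. At such a p 7 were higher, where 13.7% of all genes were. The value was larger in WT than in flox for 13 of 16 genes of the cycle and for 19 of 19 of fatty acid oxidation. Each genotype has 2 arrays per pair of numbers.

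Whether the difference by number differed between the genotypes was tested as the interaction of genotype and number in limma. It passed the adjusted threshold for 0 of 35 genes, where 0.0% of all genes passed. An unadjusted p under 0.05 was reached by 2 of 35, where 15.3% of all genes reached it. These were Eci2, with -0.17 (SE 0.086) within flox and 0.25 (SE 0.086) within WT, an interaction of -0.41 (SE 0.12, limma adjusted p = 0.278), and Slc25a20, with 0.16 (SE 0.094) and 0.54 (SE 0.094), an interaction of -0.37 (SE 0.13, limma adjusted p = 0.287). Fabp3 had the largest interaction, -0.50 (SE 0.24), with an interval from -1.06 to 0.049. In the other direction, Sucla2 differed by 0.28 within flox and 0.13 within WT, and Dld by 0.22 and 0.12. The median interaction was -0.069 for the cycle and -0.18 for fatty acid oxidation, against -0.046 over all genes. It was positive for 3 of 35 genes, where it was for 40.9% of all genes. With quantile normalization the cycle's median changed sign, to 0.013, and that of fatty acid oxidation was -0.096.

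**Figure D4:**
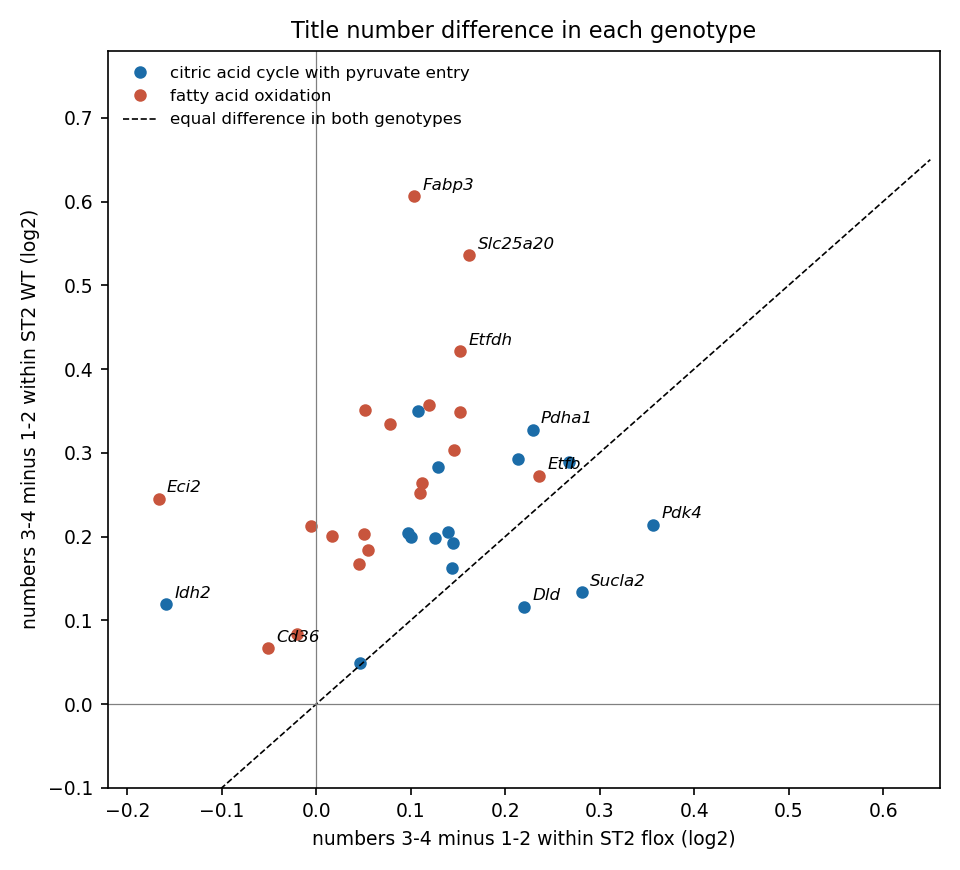
Difference by title number within ST2 flox (horizontal, log2) and within ST2 WT (vertical, log2) for 35 genes, each from 2 against 2 arrays, with the dashed line where both are equal. All 19 red points, the genes of fatty acid oxidation, lie above the line, and 3 blue points, Pdk4, Sucla2 and Dld, lie below it.

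The same values can be read between the genotypes within each pair of numbers. In numbers 1 and 2, 17 of 19 genes of fatty acid oxidation were higher in flox, with a median of 0.071, where 56.1% of all genes were higher and their median was 0.022. In numbers 3 and 4, 0 of 19 were, with a median of -0.12, where 45.8% of all genes were higher and their median was -0.0092. For the cycle the medians were negative in both, at -0.014 with 7 of 16 higher and -0.074 with 2 of 16 higher. Fabp3 was 0.41 (SE 0.17) higher in flox in numbers 1 and 2 and differed by -0.092 (SE 0.17) in numbers 3 and 4.

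The extremes lay on a pair of WT arrays. WT 3 was the highest of the 8 arrays for 26 of 35 genes, where it was highest for 14.2% of all genes, and WT 2 was the lowest for 27 of 35, where it was lowest for 16.3% of all genes. The mean over the genes of fatty acid oxidation, each centred on its mean, was -0.19 on WT 2 and 0.22 on WT 3, and between -0.079 and 0.075 on the other 6 arrays. For the cycle the values were -0.15 and 0.18, and between -0.10 and 0.067 on the others. Without both arrays, 31 of 35 genes were still higher in numbers 3 and 4, where 54.0% of all genes were, with medians of 0.13 and 0.11. At an unadjusted p under 0.05, 9 were higher, where 5.76% of all genes were higher at such a p. This alternative was chosen after values were seen. Without WT 2 alone 31 of 35 were higher and without WT 3 alone 32 of 35. The share of all genes in these fits is not given here, so these counts have no background beside them.

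**Figure D5:**
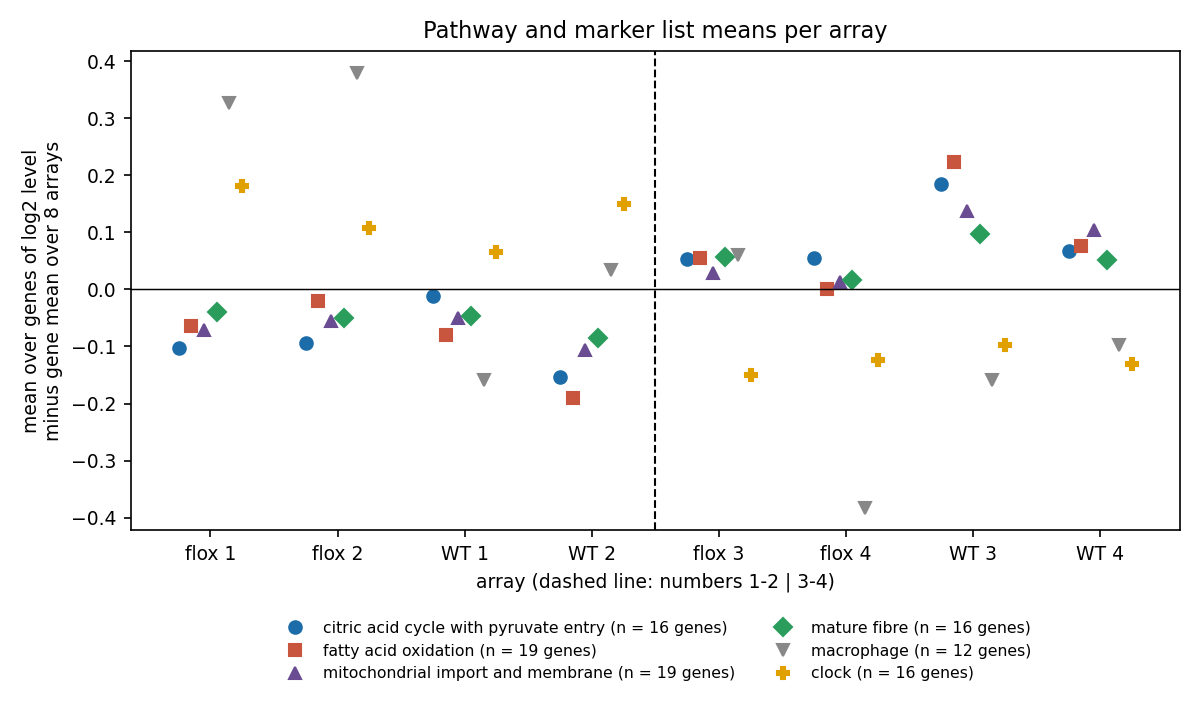
Mean over each list of log2 levels centred per gene, for each array, with numbers 1 and 2 left of the dashed line. Both pathways, the mitochondrial import list and the mature fibre list are below 0 on the left and at or above 0 on the right, the clock list is the reverse, and the macrophage list is spread widely among the flox arrays.

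Other genes of the same routes had smaller median differences. Of 25 other genes of pyruvate and cycle metabolism tested, 17 were higher in numbers 3 and 4, where 56.7% of all genes were, and the median was 0.075. An unadjusted p under 0.05 was reached by 7 of the higher genes and 1 lower gene. Over all genes 9.65% were higher and 8.92% lower at such a p. The first 4 by p were Dlat, the transferase of pyruvate dehydrogenase, at 0.22, the phosphatase Pdp2 at 0.22 and the succinate dehydrogenase subunits Sdhb and Sdha at 0.19 and 0.18. By genotype 2 of 25, or 8.0%, had an unadjusted p under 0.05, where 3.79% of all genes did. Pdpr, a regulator of the pyruvate dehydrogenase phosphatase, and Me3, a mitochondrial malic enzyme, had flox minus WT differences of -0.13 and -0.20 and an adjusted p of 0.912 each in limma. Pdpr read 10.63, 10.53, 10.75 and 10.69 in numbers 1 and 2 and 10.58, 10.66, 10.76 and 10.70 in numbers 3 and 4, every flox array below every WT array, as in 0.826% of all genes.

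Of 31 other genes of fatty acid handling, 15 were higher in numbers 3 and 4, where 56.7% of all genes were, and the median was -0.0038. An unadjusted p under 0.05 was reached by 5 of the higher genes and 2 lower genes. Over all genes 9.65% were higher and 8.92% lower at such a p. Cpt1a, the carnitine palmitoyltransferase of liver and many other tissues, read 9.92, 9.84, 9.44 and 9.36 in numbers 1 and 2 and 9.41, 9.21, 9.26 and 9.01 in numbers 3 and 4 and was lower by number, at -0.42 (limma adjusted p = 0.0639). Fabp5, a binding protein of macrophages and epidermis, was also lower, at -0.39 (adjusted p = 0.0639). Oxct1, which uses ketone bodies, and Acad8, a dehydrogenase of valine breakdown, were higher, at 0.25 and 0.19. Cpt1a was also among the genes with the smallest genotype p, at 0.33 with an unadjusted p of 0.0609 in limma. By number the carnitine shuttle held genes on both sides of 0, with Slc25a20 and Cpt2 higher and Cpt1a lower. By genotype Slc25a20 was at 0.023 (SE 0.14) and Cpt2 at -0.032 (SE 0.096), each closer to 0 than its standard error.

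Of 24 regulators of these pathways, 15 were higher in numbers 3 and 4, where 56.7% of all genes were. An unadjusted p under 0.05 was reached by 6 of the higher genes and 1 lower gene. Over all genes 9.65% were higher and 8.92% lower at such a p. Ppara and Ppard, nuclear receptors that switch on genes of fatty acid oxidation, were 0.30 and 0.18 higher, and Mlxipl, a carbohydrate-sensing factor, 0.33 higher. Pparg, the receptor of fat cells and macrophages, was at -0.19. By genotype 1 of 24, or 4.17%, had an unadjusted p under 0.05, close to the 3.79% of all genes. This was Klf15, a factor of amino acid and lipid use in muscle, at -0.19 (limma adjusted p = 0.912). Of 16 genes that respond to fasting or glucocorticoids, 3 were higher and 4 lower by number at an unadjusted p under 0.05, where 9.65% and 8.92% of all genes were. Among them were Zbtb16 at 0.41, the ubiquitin ligase Trim63 at 0.33, Per1 at -0.58 and the metallothionein Mt2 at -0.57, so that list held genes on both sides of 0. Per1 is also counted in the clock list below.

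Several other lists lay to 1 side by title number, and their part in the differences above was not tested. Over all genes 56.7% were higher in numbers 3 and 4. That share belongs beside each count of higher genes below, apart from the count with quantile normalization. Of 19 genes of mitochondrial import and membranes, 18 were higher in numbers 3 and 4, with a median of 0.14. Of these, 12 had an unadjusted p under 0.05, where 9.65% of all genes were higher at such a p. Among them were the import channel subunit Timm23 at 0.23 and the chaperone Hspa9 at 0.22. Of 16 mature fibre markers 15 were higher, with a median of 0.10, although with quantile normalization it was 10 of 16 and 0.050. The mean of that list was -0.085 to -0.039 in numbers 1 and 2 and 0.016 to 0.097 in numbers 3 and 4. Of 12 macrophage markers 0 were higher and 6 were lower at an unadjusted p under 0.05, where 8.92% of all genes were, with a median of -0.25. Their mean was -0.16 to 0.38 in numbers 1 and 2 and -0.38 to 0.061 in numbers 3 and 4, so it overlapped between the numbers. Slow fibre markers had a median of 0.17 but a mean of -0.33 on flox 1 and 0.27 on flox 2, both among numbers 1 and 2. Higher in numbers 3 and 4 were also 11 of 12 markers of regenerating fibres (median 0.11), 6 of 7 of fat cells (0.089) and 6 of 6 of skin (0.47), against 4 of 10 endothelial (-0.049), 2 of 10 fibroblast (-0.16) and 1 of 2 erythroid markers (-0.11). The array means of each of these lists overlapped between the numbers. For regenerating fibres they ran from -0.24 to 0.059 in numbers 1 and 2 and from -0.059 to 0.19 in numbers 3 and 4. For fat cells the ranges were -0.30 to 0.18 and -0.057 to 0.12, and for skin -0.35 to -0.11 and -0.17 to 1.17.

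The mean of the clock list separated the numbers without overlap, although its genes did not all move to 1 side. That mean was 0.065 to 0.18 in numbers 1 and 2 and -0.15 to -0.098 in numbers 3 and 4. The gene Clock went the other way, at 9.43, 9.49, 9.46 and 9.40 in numbers 1 and 2 and 9.68, 9.56, 9.54 and 9.57 in numbers 3 and 4. The adjusted threshold was passed by 5 of the 16 genes of the list, where 0.373% of all genes passed. Ciart, a repressor of the clock, read 7.82, 7.80, 7.36 and 8.15 in numbers 1 and 2 and 6.28, 6.33, 6.27 and 6.26 in numbers 3 and 4, a difference of -1.50 (limma adjusted p = 0.00641), and Dbp, an output factor of the clock, differed by -0.89 (adjusted p = 0.0085). By genotype, 12 of 12 macrophage markers were higher in flox, where 48.8% of all genes were, with a median of 0.21. Only Cd14 had an unadjusted p under 0.05, where 3.79% of all genes did, and its adjusted p in limma was 0.912. The means of the list ran from -0.38 to 0.38 on the flox arrays and from -0.16 to 0.033 on the WT arrays. The part of these markers in the genotype differences of the 35 genes was not tested.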

How the data were processed

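Whole tibialis anterior of 8 samples was profiled on the Mouse Gene 1.0 ST array of Affymetrix. Per the submitters' processing notes, the deposited intensity values come from Affymetrix Power Tools by RMA, which corrects background, evens out the arrays and summarises the probes of a probeset. Tool versions, genome build and row filters are not given in the sources used. RMA hides a shift shared by most genes and compresses changes of dim probesets. Depth has no meaning for arrays, so their number limits the precision.

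The base 2 logarithm of the 24922 rows was taken without a pseudocount. Of these, 21425 rows had 1 gene symbol in the platform annotation, and 21347 of them were found in the RefSeq table of GRCm38.p6. Rows with a mean under the 25th percentile, log2 6.35, were left out and the brightest row per gene was kept, leaving 15007 genes. No pair of arrays shared more than 14 values.

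Genotype, title number (with genotype as a term) and their interaction were fitted with limma 3.58.1 in R 4.3.3, adjusted by Benjamini-Hochberg over all genes with a threshold of 0.05, and tested on simulated data. Unadjusted p are limma's. The gene lists and the split by number were chosen with earlier results of these data known. Lists are described by counts and medians without a test. Named with every array's value were, per pathway, the 5 genes with the smallest p in the genotype fit and in the title number fit, the 3 with the largest SD, and each gene whose groups did not overlap. From the other lists, the genes named are among the 4 with the smallest p in a fit and mostly have a difference alone. Alternatives were other filters, normalizations, row rules and priors, and leaving out arrays. Figures were drawn with matplotlib.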

Additional observations from a re-analysis of the deposited data

Results flagged for a closer look

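In a test for 1 array far from the rest of its genotype, applied to 120 sets of 4 arrays on the gap as a share of the range (Dixon's 95% limit), 3 sets passed, and chance alone passes about 1 in 20. The fatty acid carrier Cd36 read 11.52 on flox 2 and 11.41 to 11.42 on the other flox arrays, a gap of 0.911 of the range. The mean of the 24 regulators was -0.064 on flox 2 and 0.0020 to 0.0090 on the other flox arrays, a gap of 0.904. The mean of the 6 skin markers was 1.17 on WT 4 and -0.17 to -0.11 on the other WT arrays, a gap of 0.954. Skin markers were therefore highest on 1 array of numbers 3 and 4, where the mean of the citric acid cycle genes was 0.067 and that of fatty acid oxidation 0.075.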

How the results depend on the processing

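No gene of either pathway passed the adjusted threshold by genotype under any alternative run, and the medians kept their sign except with 1 array left out, when they ranged from -0.098 to 0.0015 for the cycle and from -0.075 to 0.041 for fatty acid oxidation, and, for fatty acid oxidation, within numbers 1 and 2. By title number, genes past the adjusted threshold were 3 with the filter at the 50th percentile, 4 with quantile normalization, 3 with cyclic loess and 3 with a trended robust prior, and 0 with each array left out. Genes higher at an unadjusted p under 0.05 were 7 within ST2 flox, where 13.7% of all genes were. They were 9 without WT 2 and WT 3 together, where 5.76% of all genes were. With 1 array left out they were 16 to 24, and the share of all genes in those fits is not given here. With 1 array left out, the medians by number ran from 0.15 to 0.19 and from 0.14 to 0.23. Over the same 15007 genes, or 10031 with the 50th percentile filter, 56 passed by number, against 29 without a filter, 258 with that filter, 341 with quantile normalization, 322 with cyclic loess, 244 with the trended robust prior, 322 within flox, 1 within WT, 1 without WT 2 and WT 3, and 3 to 175 with 1 array left out. The cause was not tested.

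Flox and WT samples of the same number had deviations from their group means that correlated at -0.0017, 0.35, 0.25 and 0.042 across genes for numbers 1 to 4, and not every sample correlated best with its own number, so the numbers were not taken as pairs. With the title number as a replicate block, 0 genes of the 35 and 0 of all genes passed by genotype, 694 of all genes had an unadjusted p under 0.05 against 569 without the block, and the medians stayed at -0.060 and -0.016. The block could not be fitted for the difference by number.

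Small genotype differences changed sign. With quantile normalization Slc25a20 was -0.0063 and Etfb -0.0065. With cyclic loess Etfb was -0.0031 and with median centring -0.0020. Within numbers 1 and 2 the values were 0.00030 for Dlst, 0.037 for Suclg1, 0.0042 for Fh1, 0.035 for Mdh2, 0.096 for Cpt2, 0.068 for Acadvl, 0.070 for Hadh, 0.055 for Hadha, 0.0061 for Decr1, 0.034 for Etfa and 0.076 for Etfdh. Within numbers 3 and 4 they were 0.0021 for Dld, -0.021 for Mdh1, -0.092 for Fabp3, -0.16 for Slc25a20 and -0.018 for Etfb. Without WT 2 and WT 3 they were 0.017 for Hadh and -0.025 for Etfb. With 1 array left out they ranged from -0.14 to 0.045 for Acadvl, -0.10 to 0.058 for Cpt2, -0.072 to 0.012 for Cs, -0.12 to 0.0045 for Decr1, -0.075 to 0.012 for Dlst, -0.13 to 0.0037 for Etfa, -0.064 to 0.055 for Etfb, -0.15 to 0.036 for Etfdh, -0.15 to 0.00020 for Fh1, -0.060 to 0.063 for Hadh, -0.075 to 0.034 for Hadha, -0.063 to 0.090 for Mdh1, -0.085 to 0.050 for Mdh2, -0.093 to 0.017 for Ogdh, -0.10 to 0.14 for Slc25a20 and -0.17 to 0.0028 for Suclg1. None of these genes had a called genotype difference. The cause was not tested.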
